A study of Homo sapiens with 16 samples.

Results

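The cells described here are the dorsal neural progenitor-like cells of human kidney organoids, and they were chosen by transcripts of 8 genes. A barcode with over 500 detected genes entered the gate when it held at least 1 UMI (a unique molecular identifier, which marks 1 counted mRNA molecule) in 3 or more of MSX1, WNT1, ZIC1, ZIC2, RFX4, FABP7, HES5 and SOX2, and no UMI of SOX10, a transcription factor of neural crest and its glia. The gate took 969 of 35066 cells, of which 753 of 11906 came from the VC library and 216 of 23160 from the TNF library.

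All organoids came from UM77-2, an established line of human embryonic stem cells, so that every group shared 1 genotype. For single-cell RNA, whole wells either served as vehicle control (VC) or received 5 ng/ml TNFα for 24 h from day 23, and both were collected on day 24, dissociated with a cold-active protease and run on 10x Genomics 3′ v3 chemistry, with 1 library per condition. Bulk RNA came from isolated spheroids of other cultures, as set 1 (1 library on each of days 21, 25 and 29), set 2 (2 libraries, Org1 and Org2, on each of these days) and a TNF set (VC and 5 ng/ml TNFα for 24 h or 48 h, 1 library each, all collected on day 25). Whole wells also hold cells that grow outside the spheroids, so that levels in the wells and in the spheroids stand side by side and were not tested against each other.

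The dorsal edge of the neural tube is the roof plate, a strip of cells that secretes Wnt and BMP ligands. Progenitors beside it carry MSX, ZIC, PAX3 and OLIG3 genes and give rise to neural crest and to dorsal interneurons, and HOX genes mark their position from hindbrain to the lower spinal cord. Neural cells are known to arise beside nephron and stromal cells when pluripotent cells are directed to kidney.

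The libraries stood apart in depth. The gated cells held 7192867 UMIs in VC, with a median of 7671 UMIs and 3086 genes per cell, and 1500013 UMIs in TNF, with medians of 5570.5 UMIs and 2491.5 genes. The other cells had a median of 6216 UMIs in VC and 2589 in TNF. The shallowest cell held 613 UMIs in VC and 1514 in TNF, so that the deposited barcodes of the libraries covered different ranges of depth. Between the libraries 74 barcodes were shared, of which 0 were gated in both. The median share of mitochondrial UMIs was 1.70% in gated VC cells and 2.21% in gated TNF cells, against 2.21% and 2.95% in the other cells.

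Gated cells made up 6.32% of the VC library (95% exact binomial interval 5.89 to 6.78) and 0.933% of the TNF library (0.813 to 1.07). A gate that asks for 3 genes takes more cells where more UMIs were read, so each cell was also thinned to 1500 UMIs, leaving out shallower cells. The thinned shares were 1.90% in VC (208 of 10953) and 0.281% in TNF (65 of 23160). At 3000 UMIs they were 4.16% (410 of 9858) and 1.05% (99 of 9467), with most TNF cells too shallow to enter. In cells with podocyte transcripts, which should lack the gate genes, 2.13% in VC and 0.780% in TNF passed the gate, at median depths of 6453 and 3815 UMIs. After thinning to 1500 UMIs these shares were 0.265% and 0.0390%, below the thinned shares over all cells. At 3000 UMIs they were 0.703% in VC and 0.537% (9 of 1675) in TNF, beside 4.16% and 1.05% over all cells. The background was thus a larger part of the TNF share than of the VC share at 3000 UMIs. With 1 library per condition there is no replicate error and no test, and these intervals, like all others on cells, cover counting error only.

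The values that chose the cells are given as a description. MSX1 had a UMI in 84.9% of the gated VC cells and 87.5% of the gated TNF cells, SOX2 in 74.2% and 61.1%, ZIC2 in 71.2% and 73.2%, and HES5, the least frequent, in 25.9% and 3.70%. At the edge of the gate, 331 VC cells held 2 gate genes and 195 held 3, at median depths of 6739 and 6925 UMIs. DKK1, which the gate did not use, stood at 122 CPM (the usual scaled count, here a gene's UMIs summed over the cells of a class relative to all UMIs of that class) in the first and 497 CPM in the second. In TNF the corresponding levels were 179 CPM in 319 cells and 616 CPM in 87 cells. The step across the edge was therefore graded, and cells with 2 gate genes held some of the same transcripts.

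Some gated cells also carried transcripts of other lineages. Scrublet scores placed 111 gated VC cells (14.7%) and 7 gated TNF cells (3.24%) among the doublets expected at 0.8% per 1000 cells, which sets the share over all cells at 9.53% in VC and 18.5% in TNF. UMIs of at least 3 podocyte, 3 muscle or 4 nephron epithelium genes were held by 128 gated VC cells (17.0%) and 65 gated TNF cells (30.1%), here called mixed cells. The same was true of 36.5% of the other VC cells and 52.7% of the other TNF cells. Doublets and mixed cells were kept, and values without the mixed cells are an alternative chosen after the data were seen. Without mixed cells the shares were 5.25% in VC and 0.652% in TNF. The part of doublets and free RNA in the levels was not tested.

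The label was checked against marker lists, and dorsal genes outside the gate were also higher in the gated cells. Apart from the gate genes, 18 genes of the dorsal neural tube summed to 507 CPM in gated and 206 CPM in other VC cells, and to 472 and 208 CPM in TNF. WNT3A, a roof plate Wnt ligand, stood at 33.0 CPM in gated and 0.760 CPM in other VC cells, and at 60 and 1.39 CPM in TNF. LMX1A, a roof plate transcription factor, stood at 10.4 CPM (75 UMIs) against 0.182 CPM in VC and at 7.33 CPM (11 UMIs) against 0.279 CPM in TNF. PAX3, a dorsal factor that neural crest and muscle precursors share, stood at 70.2 against 22.4 CPM in VC and at 31.3 against 13.5 CPM in TNF. RSPO3, a Wnt enhancer, went the other way, with 72.6 against 127 CPM in VC and 113 against 146 CPM in TNF, and RSPO2 had 0 UMIs in the gated cells of both libraries.

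Neural progenitor genes were broadly present. The 24 genes of that list summed to 6809 CPM in gated and 3729 CPM in other VC cells, and to 6547 and 4165 CPM in TNF, with VIM as the most abundant. PAX6, a neural progenitor factor, stood at 10.6 CPM in gated VC cells and 4.67 CPM (7 UMIs) in gated TNF cells, and SOX3, a relative of SOX2, at 24.9 and 8.0 CPM. SOX1 reached 5.14 CPM in gated VC cells and had 0 UMIs in gated TNF cells, where 3 UMIs would have been 2.00 CPM. Ventral genes were nearly silent. The 9 genes of the ventral neural tube summed to 0.973 CPM in gated VC and 2.00 CPM in gated TNF cells, and SHH, FOXA2 and NKX2-2 had 0 UMIs in VC.

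Markers of front parts of the brain were absent or low. SIX3, OTX1 and OTX2 of the forebrain and EN1 and EN2 of the midbrain border had 0 UMIs in the gated cells of both libraries. EMX2, which the kidney also expresses, made up most of the forebrain sum, with 52.4 of 74.5 CPM in VC. HOX genes were present throughout, with 39 genes summing to 2528 CPM in gated and 1575 CPM in other VC cells, and to 2105 and 1226 CPM in TNF. By paralogue group, the ratio of gated to other cells ran in VC from 1.01 in group 8 to 2.78 in group 2 over groups 1 to 10, and in TNF from 1.41 in group 10 to 2.46 in group 2. Group 9 had ratios of 1.41 in VC and 1.82 in TNF, and group 11 of 0.525 and 1.40. Group 11 reached 6.95 CPM, and groups 12 and 13 stayed at 0.139 CPM or below in gated VC cells.

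Schwann, muscle and podocyte lists were lower in the gated cells, while the sums of the neuron and nephron epithelium lists were closer to level. Schwann and neural crest genes other than SOX10 summed to 129 CPM in gated and 565 CPM in other VC cells, and to 102 and 317 CPM in TNF, with S100B as the most abundant. Cells with SOX10 were left out of the gate and stayed among the other cells. A lower Schwann list therefore follows in part from the rule. Muscle genes summed to 129 against 568 CPM in VC and 101 against 725 CPM in TNF, with ACTC1 as the most abundant and 3 of 12 genes at 0 in gated TNF cells. Podocyte genes summed to 501 against 1728 CPM in VC and 739 against 1576 CPM in TNF. None of the 10 podocyte genes was at 0 in the gated cells of either library. Neuron genes stood at 2282 against 2443 CPM in VC and 1451 against 1367 CPM in TNF. Genes of proximal tubule and nephron epithelium summed to 623 against 806 CPM in VC and 652 against 670 CPM in TNF. CDH6, a cadherin of the early nephron, was at least 2-fold higher in both, at 221 against 60.8 CPM in VC. It was the most abundant gene of this list in the gated cells of both libraries. Among the subgroups described below, CDH6 was highest in the DKK1-rich subgroup 1, at 555 CPM. In subgroup 7, which was led by neuron and tubule genes, it stood at 153 CPM. CDH6 is therefore not read as a nephron marker here. By gene, the median log2 ratio of gated to other cells was -0.31 in VC and -0.49 in TNF for neuron genes. For nephron epithelium genes it was -0.50 and -0.32. STMN2 of the first list and APOE of the second were at least 2-fold lower in both, against 0.636% over all genes. Astrocyte and oligodendrocyte genes summed to 601 against 768 CPM in VC and 476 against 729 CPM in TNF.

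**Figure D1:**
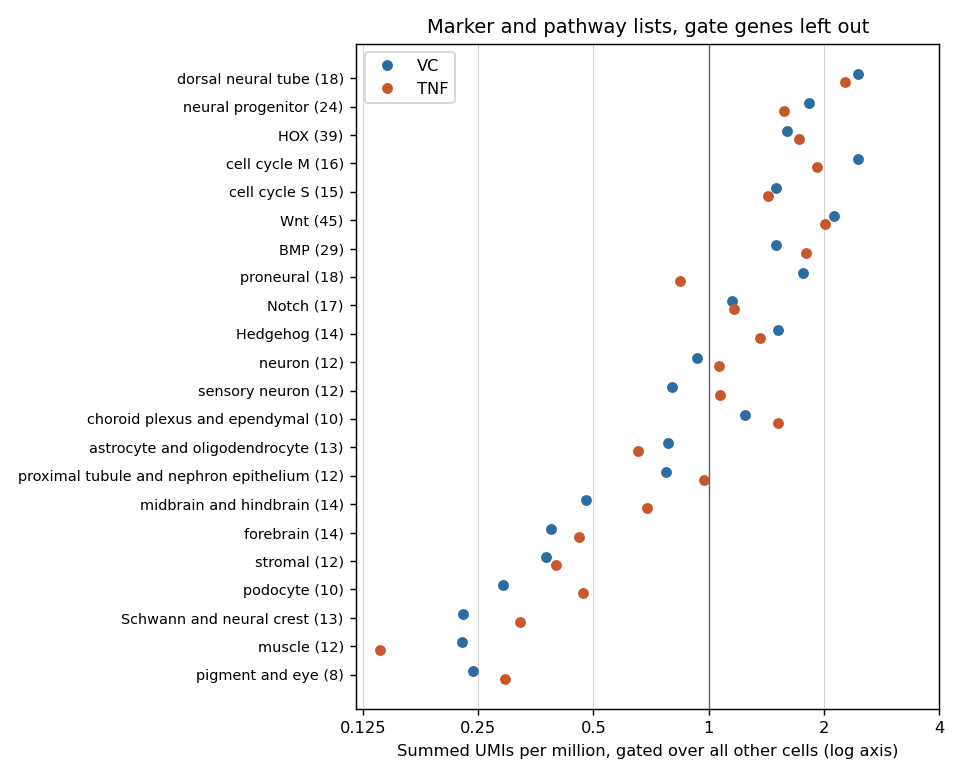
Summed CPM of each marker or pathway list in gated cells over that in all other cells of the same library, on a log axis, with the number of genes in brackets and the gate genes left out. The dorsal neural tube list sits at 2.46 in VC and 2.27 in TNF, and the muscle list at 0.227 and 0.139.

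The gated cells were next set against all other cells of the same library, gene by gene. Because the gate chose these cells, the values describe them and no test was run. A fold here is the ratio of CPM after 10 CPM was added to each, which understates the fold of low genes. Of 4638 genes with at least 50 UMIs in the gated cells of each library, 92 (1.98%) were at least 2-fold higher in both libraries. Of 16813 genes with at least 50 UMIs in the other cells of each library, 107 (0.636%) were at least 2-fold lower, and 286 without mixed cells. The 30 genes with the highest fold in the library where it was lower are called the leading genes, and they summed to 5413 CPM in gated and 749 CPM in other VC cells and to 5300 and 693 CPM in TNF.

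Several leading genes were secreted or membrane parts of Wnt signalling, with DKK1 at rank 1, APCDD1 at rank 4, WLS at rank 20 and WNT3A at rank 21. DKK1, a secreted Wnt antagonist, stood at 669 CPM in gated and 27.0 CPM in other VC cells, and at 793 and 29.9 CPM in TNF. The gated cells, though few, held 65.6% of all DKK1 UMIs of the VC library and 30.7% of those of the TNF library. APCDD1, a membrane Wnt inhibitor, stood at 223 against 18.7 CPM in VC and 217 against 26.7 CPM in TNF. WLS, the carrier that Wnt ligands need for secretion, stood at 273 against 59.7 CPM and 261 against 51.5 CPM. The gated class thus held a Wnt ligand, its carrier and inhibitors of the same pathway. Of the 45 genes of the Wnt list, 13 had enough UMIs. Of these, WNT3A, WNT4, WLS, FZD3, FRZB, DKK1 and CCND1 were at least 2-fold higher in both libraries, against 1.98% over all genes. SFRP1, another secreted Wnt antagonist, was lower, at 34.2 against 140 CPM in VC and 72.0 against 230 CPM in TNF.

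DKK1 is shown with the bases before its transcription start because it led the list, and ZIC4 because it is a dorsal gene outside the gate. The motif searched was CTTTGA, the core recognised by the TCF/LEF factors through which Wnt signals act, on both strands, from 250 bases before to 50 after each start in the RefSeq promoter table for GRCh38.p14. Of 35116 promoters, 12.9% held it. Of the 30 leading genes, 20 were matched by symbol and 8 of these (40.0%) held it in at least 1 promoter, and some have several promoters listed. The 8 were DKK1, DMD, GLIS3, MMRN1, RMST, SLIT1, TPBG and ZIC4. In the lines below, capitals mark the match, read 5′ to 3′ on the strand of the gene and ending at the base before the start. DKK1 lies on the plus strand (chr10:52314031-52314280), with matches beginning 149 and 95 bases before the start. ZIC4 lies on the minus strand (chr3:147406544-147406793), with 1 match 53 bases before the start. Of its 4 listed promoters 2 hold the motif, and the first of these is shown. A match is a description of these letters and not a shown binding site.
DKK1: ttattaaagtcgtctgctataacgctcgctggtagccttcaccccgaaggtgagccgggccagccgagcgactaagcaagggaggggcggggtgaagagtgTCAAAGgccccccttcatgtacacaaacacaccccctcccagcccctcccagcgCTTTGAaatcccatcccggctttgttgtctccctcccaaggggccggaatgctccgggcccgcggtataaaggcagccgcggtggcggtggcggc
ZIC4: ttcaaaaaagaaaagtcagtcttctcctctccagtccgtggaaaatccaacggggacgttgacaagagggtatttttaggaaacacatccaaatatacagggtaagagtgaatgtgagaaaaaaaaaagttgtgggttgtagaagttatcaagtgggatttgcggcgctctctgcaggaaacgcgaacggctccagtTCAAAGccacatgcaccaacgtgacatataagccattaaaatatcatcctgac

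BMP ligands and a BMP-responsive factor followed. GDF7, a BMP ligand of the roof plate, stood at 55.6 CPM (95% exact Poisson interval 50.3 to 61.3) in gated and 1.07 CPM in other VC cells, and at 68.0 CPM (55.4 to 82.5) and 2.30 CPM in TNF. The gated cells held 80.0% of the GDF7 UMIs of VC and 33.1% of those of TNF. GDF10, a TGF-beta family ligand, stood at 47.8 against 2.14 CPM in VC and 48.0 against 1.83 CPM in TNF. MSX2, a homeobox factor that BMP signals induce, stood at 68.1 against 6.05 CPM and 66.0 against 5.32 CPM. All of these genes were low outside the gate in both libraries. Of 10 BMP list genes with enough UMIs, BMP5, GDF7, BAMBI and MSX2 were at least 2-fold higher in both. The count was 0 of 6 for Notch and 0 of 2 for FGF list genes, too few to read against 1.98% over all genes.

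Genes with known neural roles were also among the leading genes. LY6H, a modulator of nicotinic receptors, stood at 475 against 52.5 CPM in VC and 527 against 62.4 CPM in TNF. Cells of the neuron gate (at least 3 of 6 neuron genes and not gated) held LY6H at 105 CPM in VC and 121 CPM in TNF, the highest of the classes set beside it. SLIT1, an axon guidance ligand, stood at 86.1 against 6.76 CPM in VC and 80.0 against 5.57 CPM in TNF. CNTNAP2, a neurexin family adhesion protein, stood at 129 against 15.7 CPM in VC and 165 against 25.0 CPM in TNF. Other leading genes with neural roles were SCG2, NELL2, EFNB3, CNIH2 and RMST, a long noncoding RNA of neural progenitors. Leading genes without a role given here were C5orf58 at rank 2, RAB38, TPBG, MMRN1, LINC00461, AL359091.1, DMD, C9orf135, BAALC, GLIS3, HAPLN1 and CLEC3A.

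TTYH1 and METRN were shared with glia. TTYH1, a membrane protein of neural stem cells and glia, stood at 513 CPM in gated VC and 372 CPM in gated TNF cells, and at 350 and 311 CPM in cells of the Schwann gate (SOX10 with other glial genes). METRN, a secreted factor of glia, stood at 1205 and 1136 CPM in gated cells and at 1199 and 1114 CPM in Schwann gate cells. For these genes the gated cells were thus not the only class with high levels. DKK1, by comparison, stood at 12.2 and 8.48 CPM in Schwann gate cells and at 20.9 and 12.2 CPM in neuron gate cells. After thinning to 1500 UMIs, DKK1 had a UMI in 34.6% of gated VC and 39.8% of gated TNF cells and in 1.49% and 3.11% of podocyte gate cells, which serve as the background.

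**Figure D2:**
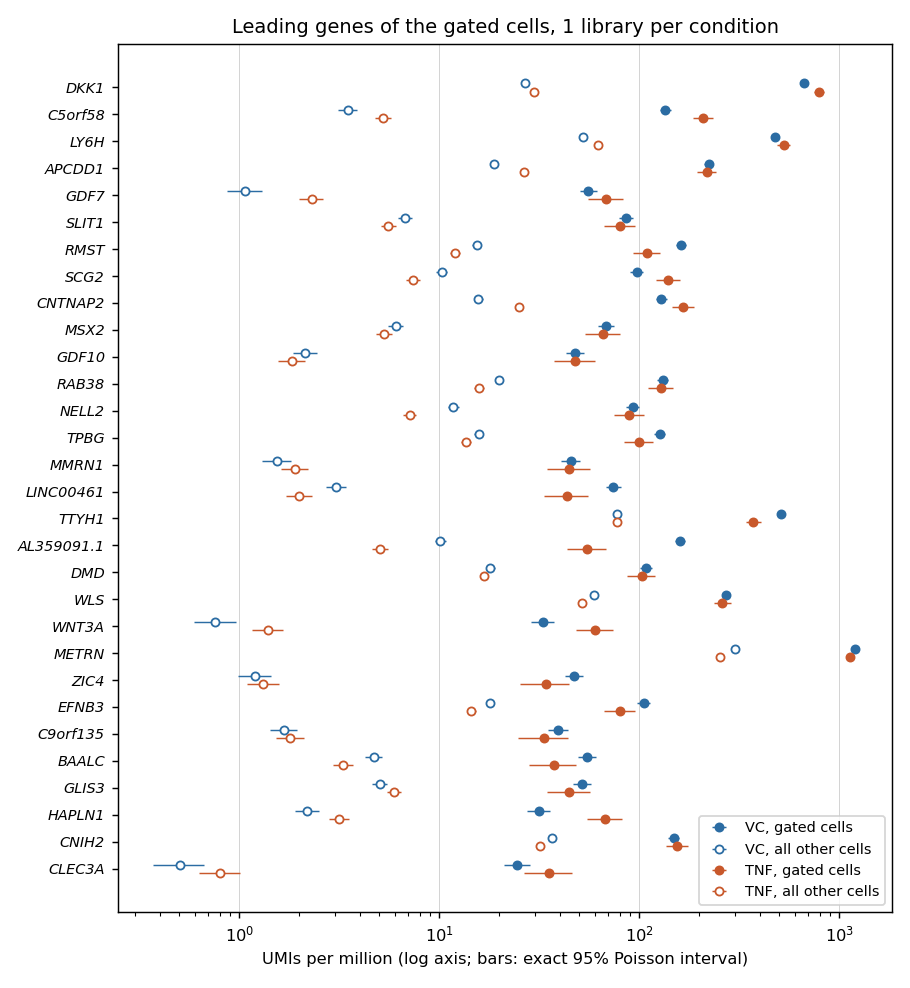
CPM of the 30 leading genes on a log axis in gated cells (filled) and all other cells (open) of the VC and TNF libraries, with 95% exact Poisson intervals as bars. DKK1 sits at 669 and 793 CPM in gated cells and at 27.0 and 29.9 CPM in the other cells.

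Genes of muscle and matrix were lowest in the gated cells. MYLPF, a light chain of fast muscle myosin, stood at 32.7 against 171 CPM in VC and 22.0 against 228 CPM in TNF. COL1A1, a fibrillar collagen, stood at 150 against 568 CPM in VC and 171 against 662 CPM in TNF. NPW, a neuropeptide that podocyte gate cells carried, stood at 35.2 against 213 CPM in VC and 34.7 against 162 CPM in TNF. Others of the 15 lowest genes were ACTC1, MYL1, TNNC2, TTN, TNNI1 and TNNT1 of muscle, NPY, and POSTN, CXCL14, COL3A1 and DCN of stroma.

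Mitotic genes were higher in the gated cells. The 16 genes of the mitotic list summed to 3310 against 1350 CPM in VC and 1955 against 1021 CPM in TNF, and of 13 with enough UMIs CCNB2, CENPF, BIRC5 and TPX2 were at least 2-fold higher in both, against 1.98% over all genes. The 15 genes of DNA replication summed to 994 against 663 CPM in VC and 971 against 681 CPM in TNF, and 0 of 10 with enough UMIs were at least 2-fold higher in both. Cells with UMIs of at least 3 mitotic genes made up 52.9% of gated and 27.7% of other VC cells, and 41.2% and 32.6% in TNF. At an even depth of 1500 UMIs these shares were 33.5% (30.1 to 37.0) against 13.3% in VC and 25.0% (19.4 to 31.3) against 17.2% in TNF. The order of gated above other cells was thus the same in both libraries when mitotic genes were counted at an even depth. The gate was still the one applied at full depth, which takes more cells where more UMIs were read. The part of depth in this order was not tested.

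The gated cells were not uniform. Clustering both libraries together without the gate genes gave 8 subgroups, which carry numbers and no names, and the genes that define them are described without a test. Subgroup 1, with 298 cells, had the highest levels of several leading genes, with DKK1 at 1709 CPM, LY6H at 1291 CPM and GDF7 at 124 CPM. It held few mitotic transcripts (257 CPM over the list). APCDD1, WLS and SCG2 were also highest there. Other leading genes were highest elsewhere, with TTYH1 and ZIC4 in subgroup 6, WNT3A in subgroup 4 and MSX2 in subgroup 5. Subgroup 4, with 100 cells, was led by CLEC3A and GDF10, with DKK1 at 979 CPM and HOXB9 at 566 CPM. Subgroup 5, with 90 cells, was led by HMMR, CCNB1 and PLK1 of mitosis, and subgroup 3, with 137 cells, by histone genes of DNA replication.

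Subgroup 6 stood apart from the DKK1-rich cells. Its 86 cells, of which 84 came from VC, held DKK1 at 1.79 CPM, LY6H at 14.3 CPM and GDF7 at 12.5 CPM but WNT3A at 46.4 CPM and MSX2 at 80.4 CPM. They were led by AL359091.1, HOXB1, NPPC and SOX3, with OLIG3, a factor of dorsal interneuron progenitors, at 148 CPM and PAX7 at 51.8 CPM. HOXB1, a gene of the hindbrain, stood at 232 CPM here and 14.4 CPM in subgroup 1, and HOXB9, a gene of the trunk, at 25.0 and 475 CPM. The order did not extend to every HOX gene, since subgroup 8 had the highest level of both HOXB9, at 632 CPM, and HOXB2, a hindbrain gene, at 349 CPM.

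Subgroup 8 carried genes of newly forming neurons. Its 29 cells, 28 of them from VC, held HES6, a factor that promotes neuron formation, at 10150 CPM, DLL3 at 1426 CPM, INSM1 at 674 CPM and ATOH1, a factor of dorsal interneurons, at 352 CPM. DKK1 stood at 6.45 CPM and the mitotic list at 9664 CPM. Subgroups 2 and 7 were rich in transcripts of other lineages. Subgroup 2, with 90 VC and 78 TNF cells, had PODXL, TCF21 and MYLPF among its leading genes, and 107 of its 168 cells were mixed and 52 were doublet calls. Subgroup 7, with 61 cells, was led by STMN2, MMP7 and FXYD2 of neurons and tubules, with 34 mixed cells, 26 doublet calls and a median of 15640 UMIs. Cell numbers per library give the make-up of each subgroup and are not read as a difference between libraries, because the genes that define several of them also differed between libraries.

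**Figure D3:**
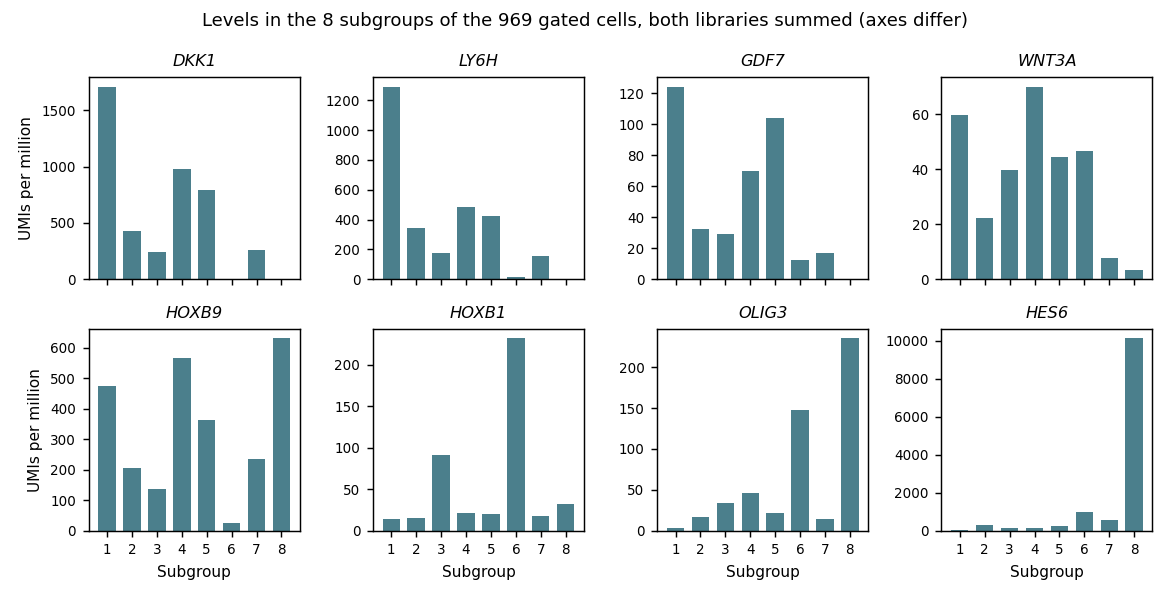
CPM of 8 genes in the 8 subgroups of the gated cells, with the UMIs of both libraries summed and a separate axis from 0 for each gene. DKK1, LY6H and GDF7 are highest in subgroup 1, HOXB1 in subgroup 6 at 232 CPM and HES6 in subgroup 8 at 10150 CPM.

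The TNF and VC libraries were then compared within the gated cells, as the ratio of TNF to VC. With 1 library per condition, the ratios carry exact intervals for 2 Poisson counts and no test. Of 11452 genes with at least 50 UMIs over the gated cells of both libraries, 31 (0.271%) were at least 2-fold higher in TNF and 46 (0.402%) at least 2-fold lower after 10 CPM was added. This split turned with the scaling, to 56 higher and 45 lower by the mean of the cells' own CPM, and was 101 and 292 with 1 CPM added. For the same genes in all other cells, 47 (0.410%) were higher and 8 (0.0699%) lower. The other TNF cells held 89652162 UMIs against 1500013 in the gated TNF cells, and the part of the larger counting error in the gated counts was not tested. The higher genes shared 22 members, which is 22 of 31 in the gated cells and 22 of 47 in the others, and the lower genes shared 3, of 46 and 8. The median log2 ratio was -0.03 in both classes.

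NF-kB targets were prominent among the higher genes. Of 12 genes of that list with enough UMIs, NFKBIA, CCL2, IL32, VCAM1 and IRF1 were at least 2-fold higher in the gated cells. In the other cells 8 of 12 were, while the shares over all genes were 0.271% in gated and 0.410% in other cells. The median log2 ratios of the list were 0.99 in gated and 1.22 in other cells. Over all 32 list genes the summed level was 237 CPM in gated VC and 1342 CPM in gated TNF cells, against 330 and 3228 CPM in the other cells. CCL2, a chemokine for monocytes, stood at 8.90 CPM in VC and 393 CPM in TNF, a ratio of 44.2 (34.1 to 58.2), and at 32.6 and 1249 CPM in the other cells. IL32, a cytokine, stood at 15.6 and 222 CPM, a ratio of 14.3 (11.5 to 17.8). VCAM1, an adhesion molecule for leukocytes, stood at 8.2 and 82.7 CPM, a ratio of 10.1 (7.33 to 14.0). NFKBIA, the inhibitor that NF-kB itself induces, stood at 50.2 and 215 CPM, a ratio of 4.29 (3.68 to 5.00), and at 74.6 and 416 CPM in the other cells. In each of these pairs the TNF level of the gated cells was below that of the other cells.

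These transcripts lay largely in subgroup 2, which is rich in podocyte transcripts and mixed cells. Of the gated TNF cells, 78 of 216 were of subgroup 2, and of the gated VC cells 90 of 753. Subgroup 2 held 387 of 590 CCL2 UMIs, 250 of 333 IL32 UMIs, 97 of 124 VCAM1 UMIs and 176 of 323 NFKBIA UMIs of the gated TNF cells. CCL2 there stood at 27.4 CPM in VC and 735 CPM in TNF. The part of this make-up in the NF-kB values was not tested. CCL2 had a UMI in 40 gated VC cells (5.31%) and 124 gated TNF cells (57.4%), of which 68 were not mixed. At 1500 UMIs the shares were 0.673% and 31.5%, and 4.94% and 80.3% in podocyte gate cells, where CCL2 was also higher in TNF, so that they give no background for it. In subgroup 1, where few cells were mixed, CCL2 stood at 8.22 CPM in VC and 339 CPM in TNF, IL32 at 5.06 and 128 CPM and NFKBIA at 38.6 and 192 CPM. Without mixed cells, 4 of 10 list genes were at least 2-fold higher, against 30 of 10152 over all genes. The log2 ratios were then 4.20 for CCL2 and 1.69 for NFKBIA. CCL2 was abundant in the other TNF cells, and the part of free RNA in the gated cells was not tested.

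Promoters of 3 of these genes are shown because a kappaB consensus, the site of NF-kB, lies in each. Of 35116 RefSeq promoters for GRCh38.p14, 11.3% held the consensus on either strand. Of the 12 genes with the highest TNF to VC ratio, 7 were matched and 4 of these (57.1%) held it in at least 1 listed promoter. They were IL32, NFKBIA, OPTN and VCAM1. This share counts genes and the share of 11.3% counts promoters, so that they are not like for like. CCL2, CYP1B1, FDCSP, KREMEN2 and TNFRSF4 were not matched. Capitals mark the consensus in the lines below, which read 5′ to 3′ on the strand of the gene and end at the base before the start. NFKBIA lies on the minus strand (chr14:35404750-35404999) with the match beginning 81 bases before the start. VCAM1 (chr1:100719492-100719741) and IL32 (chr16:3065153-3065402, 1 of 2 listed promoters) lie on the plus strand, with matches 62 and 99 bases before the start, and the second IL32 match overlaps the first by all but 1 base.
NFKBIA: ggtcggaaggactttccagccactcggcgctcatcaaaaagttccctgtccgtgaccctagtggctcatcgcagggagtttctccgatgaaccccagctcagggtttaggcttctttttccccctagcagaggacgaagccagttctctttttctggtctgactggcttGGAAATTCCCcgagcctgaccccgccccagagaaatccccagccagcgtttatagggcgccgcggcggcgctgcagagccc
VCAM1: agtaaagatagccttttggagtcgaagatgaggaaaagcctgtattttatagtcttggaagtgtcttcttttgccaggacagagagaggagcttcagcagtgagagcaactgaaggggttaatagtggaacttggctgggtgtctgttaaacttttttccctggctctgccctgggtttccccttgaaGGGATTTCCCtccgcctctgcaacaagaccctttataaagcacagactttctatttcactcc
IL32: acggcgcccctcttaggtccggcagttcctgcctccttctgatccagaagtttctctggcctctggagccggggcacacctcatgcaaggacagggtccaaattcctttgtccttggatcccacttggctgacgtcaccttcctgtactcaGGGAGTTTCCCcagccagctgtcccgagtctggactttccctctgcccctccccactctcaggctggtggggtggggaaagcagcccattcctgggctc

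Other genes among the 12 highest had mixed support. SULT1E1, an enzyme that inactivates oestrogen, stood at 27.5 CPM in VC and 120 CPM in TNF, a ratio of 4.36 (3.54 to 5.36). OPTN, an adaptor of NF-kB signalling and autophagy, stood at 17.9 and 77.3 CPM, a ratio of 4.31 (3.33 to 5.59). KREMEN2, a receptor for DKK1, stood at 9.04 and 48.7 CPM, a ratio of 5.39 (3.80 to 7.64). FDCSP had 1 UMI in VC and 99 in TNF, a ratio of 475 with an interval from 83.3 to 18940. The others were CYP1B1, EGR1, TNFRSF4 and SST. SST, the peptide somatostatin, stood at 42.1 and 365 CPM, but 304 of its 548 TNF UMIs lay in 1 cell and 10 TNF cells held any. Without mixed cells its log2 ratio was -1.70 in place of 2.85. TNFRSF4 had a log2 ratio of 1.85, which was 0.98 without mixed cells.

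Genes of TNFα receptors and antigen presentation are set beside 0.271% of all genes higher in gated and 0.410% in other cells. Of 18 genes of the TNF receptor complex with enough UMIs, RELB was at least 2-fold higher in the gated cells, and TNFRSF1A, the main TNFα receptor, stood at 39.6 CPM in VC and 60 CPM in TNF. Of 10 MHC class I and antigen processing genes, TAPBP and PSMB8 were at least 2-fold higher, with a median log2 ratio of 0.53, against 5 genes and a median of 1.01 in the other cells. The TNF library's gated cells also held more podocyte transcripts than VC, with 739 against 501 CPM, and the part of these cells in the TNF values was not tested.

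Genes of neuron formation led the lower side. HES6 stood at 742 CPM in VC and 165 CPM in TNF, a ratio of 0.223 (0.195 to 0.253), and at 268 and 168 CPM in the other cells. Subgroup 8, with 29 cells, held 3146 HES6 UMIs, against 5338 in all gated VC and 248 in all gated TNF cells. With at least 4 gate genes the log2 ratio of HES6 was -1.55 in place of -2.10. INSM1 stood at 42.8 and 10.0 CPM, and DLL1, a Notch ligand of differentiating cells, at 23.6 and 2.67 CPM. STMN2, a neuron cytoskeleton protein, stood at 176 and 35.3 CPM in gated cells and at 481 and 233 CPM in the other cells. Subgroup 7, with 61 cells and many doublet calls, held 1079 STMN2 UMIs, against 1263 in all gated VC and 53 in all gated TNF cells. The log2 ratio of STMN2 was -1.58 without mixed cells and -1.61 without doublets. Of 13 proneural genes, INSM1, HES6 and GADD45G were at least 2-fold lower, and of 12 neuron genes STMN2, ELAVL3, ELAVL4 and DCX were, against 0.402% over all genes, with median log2 ratios of -0.81 and -0.71. In the other cells the medians of the same lists were -0.59 and -0.76, with 0 and 1 genes at least 2-fold lower. With the gate applied to thinned cells the log2 ratio of STMN2 was -0.73 in place of -2.03, which no longer reached 2-fold, and that of HES6 was -2.25 in place of -2.10.

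In subgroup 1 HES6 stood at 47.4 CPM in VC and 30.6 CPM in TNF, and STMN2 at 16.4 and 19.5 CPM. At 1500 UMIs HES6 had a UMI in 22.8% of gated VC cells against 5.82% of podocyte gate cells, and in 10.2% of both in TNF. The podocyte gate share itself differed between the libraries, so that it gives no fixed background for HES6. GSX2, a dorsal interneuron progenitor factor, had 92 UMIs in gated VC cells and 0 in TNF, at least 6.39-fold lower when 3 UMIs over the class are taken as the floor. OLIG3, highest in subgroups 8 and 6, stood at 39.3 and 13.3 CPM, and HOXB1, highest in subgroup 6, at 49.1 and 16.7 CPM. With 1 library each, an effect of TNFα on which gated cells were present and a difference between the wells cannot be told apart.

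The leading genes were chosen as high in both libraries, so that a ratio near 1 follows in part from the choice. Of the 30 leading genes, 0 were at least 2-fold higher in TNF and AL359091.1, a gene of subgroup 6, was lower, at 160 CPM in VC and 54.7 CPM in TNF. The median log2 ratio of the leading genes was -0.05. DKK1 had a ratio of 1.18 (1.11 to 1.26), LY6H of 1.11 (1.03 to 1.20) and GDF7 of 1.22 (0.974 to 1.52). Among the lower genes, MT1G, a metallothionein, had 103 of its 238 VC UMIs in 1 cell and a log2 ratio of -0.06 without mixed cells in place of -1.84. The remaining lowest genes were RGS16, SPRR2F and NPY.

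Genes whose ratio differed most from that in the other cells were listed in each direction. Above the other cells, beside SST, EGR1 and KREMEN2, lay HSPB8, NDUFA4L2, RRAS, COL9A1, SMOC2, COL12A1 and KCNJ2. RRAS, a small GTPase, stood at 57.7 CPM in VC and 147 CPM in TNF in gated cells, against 107 and 184 CPM. Below the other cells, beside FDCSP, TNFRSF4 and the neuron formation genes, lay RGS16, WNT5A, GSX2 and PDLIM3. WNT5A, a Wnt ligand, stood at 30 and 8.0 CPM in gated cells and at 30.9 and 37.8 CPM in the other cells. Within the gated cells WNT5A was highest in subgroups 6 and 3, at 96.4 and 55.5 CPM. These subgroups held 84 and 122 of the 753 gated VC cells and 2 and 15 of the 216 gated TNF cells. The differences between the classes were not tested.

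**Figure D4:**
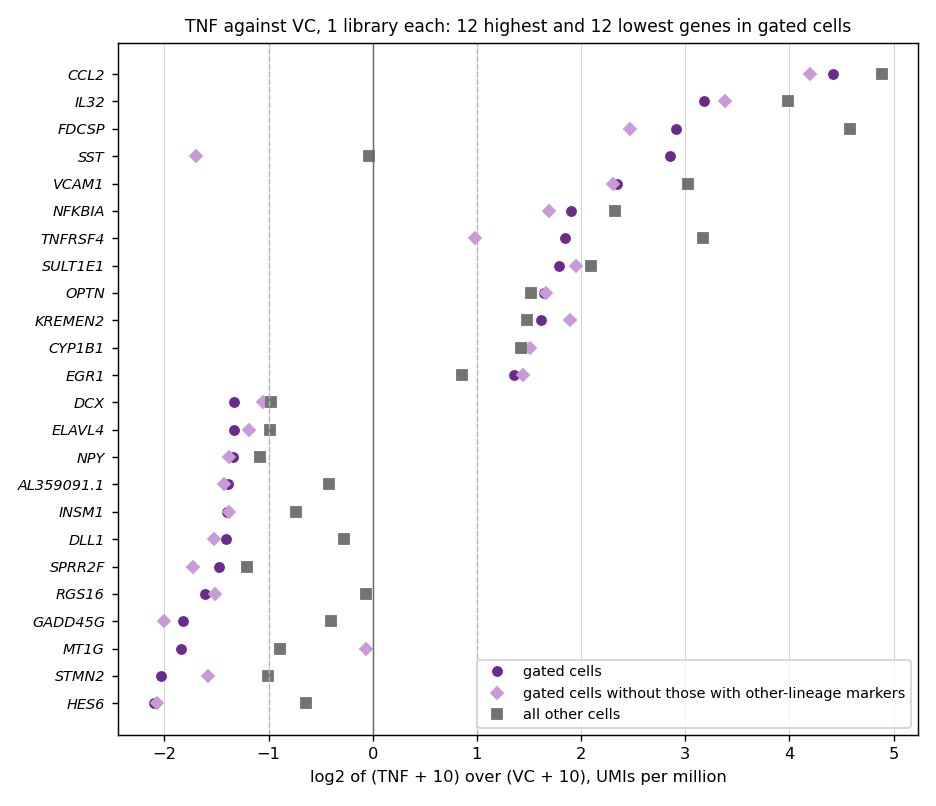
Log2 ratio of TNF to VC, each with 10 CPM added, for the 12 highest and 12 lowest genes of the gated cells (circles), the same without mixed cells (diamonds) and in all other cells (squares), 1 library per condition. CCL2 lies at 4.42, 4.20 and 4.89, and SST moves from 2.85 to -1.70 without mixed cells.

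Bulk RNA gave replicated values that the gate did not use. Levels are log2(CPM + 1) as deposited, from 19073609 to 30282025 reads per set 2 library, and Org1 and Org2 may be technical repeats, so that p-values may measure technical spread. In bulk, fewer cells of a type and less RNA per cell cannot be told apart. The fit was limma over all 27650 genes of set 2, with p-values adjusted by the Benjamini-Hochberg method. From day 21 to day 29, 2778 genes (10.0%) rose and 2303 (8.33%) fell, a split that became 2408 and 4667 when each library was centred on its median. From day 21 to day 25, 937 genes (3.39%) rose and 549 (1.99%) fell, and 971 and 1281 after centring.

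The leading genes of the gated cells mostly rose with days in culture. Of 30, 21 rose and 0 fell from day 21 to day 29, with a median log2 change of 0.97 against -0.02 over all genes, and 21 rose and 1 fell after centring. From day 21 to day 25, 6 rose and 0 fell, with a median of 0.34 against 0.00, and the count ran from 1 to 12 when 1 library was left out. DKK1 lay at 4.90 and 4.84 on day 21, at 5.78 and 5.70 on day 25 and at 6.73 and 7.53 on day 29. All day 29 values were above all day 21 values, and the log2 change was 2.26 (SE 0.21, limma adjusted p = 0.000393). The other 4 of the 5 largest rises were SCG2 with 2.40, LY6H with 2.25, NELL2 with 2.00 and CNTNAP2 with 1.81. SCG2 lay at 2.25 and 2.40 on day 21 and at 4.47 and 4.97 on day 29 (SE 0.17, limma adjusted p = 0.000148).

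Genes of the roof plate did not move together. GDF7 lay at 5.40 and 5.53 on day 21 and at 5.83 and 6.54 on day 29, with a log2 change of 0.72 (SE 0.21, limma adjusted p = 0.0467), and its adjusted p reached 0.215 when 1 library was left out. GDF7 did not pass with DESeq2 (adjusted p = 0.0692) or in limma without the trend (adjusted p = 0.0887). WNT3A lay at 3.41 and 3.36 on day 21 and at 2.60 and 2.93 on day 29, with a log2 difference of -0.62 (SE 0.18, limma adjusted p = 0.0521). The call for WNT3A also depended on the tool, since it was lower by edgeR (adjusted p = 0.0258) and DESeq2 (adjusted p = 0.0329), and the limma adjusted p reached 0.211 when 1 library was left out. MSX2 and TTYH1 had log2 differences of -0.06 and -0.03, with day 21 and day 29 values that overlapped. LMX1A rose by 0.96 (limma adjusted p = 0.00555), which reached 0.054 when 1 library was left out. RSPO3 rose by 3.32 and RSPO1 fell by 2.20. In the gated VC cells of the wells RSPO3 was below and RSPO1 above the other cells, at 15.3 against 4.32 CPM for RSPO1. Over the 18 dorsal genes, 6 rose and 3 fell, against 10.0% and 8.33% over all genes, with a median log2 change of 0.25. In set 1 the median difference of these genes was -0.20, and 8 of 18 were higher on day 29.

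Lists around these genes also changed in set 2. The shares over all genes were 10.0% rising and 8.33% falling. Of 33 HOX genes, 18 rose and 1 fell, and of 45 Wnt genes 26 rose and 6 fell. Of 12 neuron genes 11 rose, with a median log2 change of 1.17, while set 1 had a median difference of -0.29. Of 24 neural progenitor genes 11 rose and 6 fell. Stromal genes moved with the leading genes, with 9 of 12 rising, as did muscle genes, with 8 of 11 rising, and 6 of 10 podocyte genes fell. The part of a changing cell make-up in the leading genes was not tested.

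Set 1 and the TNF set have 1 library per condition and no test. In set 1, 24 of the 30 leading genes were higher on day 29 than on day 21, against 9960 of 20121 over all genes, with a median difference of 0.87 against 0.00 over all genes, and DKK1 went from 4.88 to 5.48 and 6.77. In the TNF set, 24 of 30 were lower with TNFα at 24 h and 16 of 30 at 48 h, against 12292 and 11157 of 21093 over all genes, with median differences of -0.28 and -0.01 against -0.04 and -0.01 over all genes. DKK1 lay at 6.58 in VC and 5.92 with TNFα at 24 h, and at 6.47 and 6.68 at 48 h. GDF10 lay at 4.0 in VC and 2.80 with TNFα at 24 h, and at 3.84 and 2.90 at 48 h. WNT3A lay at 2.99 and 3.63, and at 3.0 and 3.69. In the gated cells of the wells DKK1 stood at 669 CPM in VC and 793 CPM in TNF, GDF10 at 47.8 and 48.0 CPM, and WNT3A at 33.0 and 60 CPM.

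**Figure D5:**
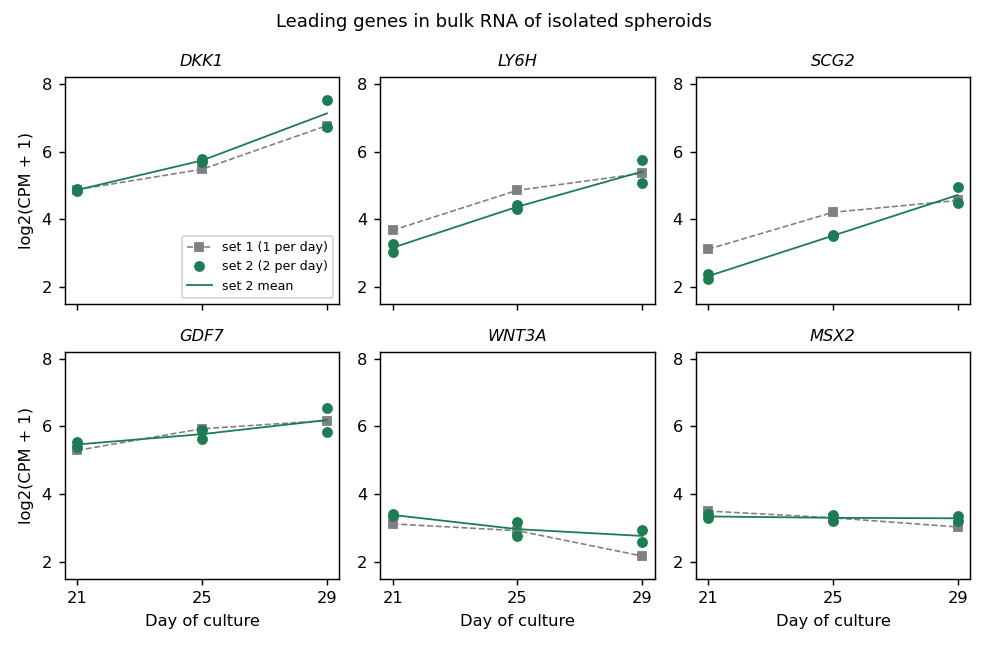
log2(CPM + 1) of 6 leading genes in bulk RNA on days 21, 25 and 29, with set 1 as squares (1 library per day), set 2 as circles (2 libraries per day) and the set 2 mean as a line. DKK1 of set 2 goes from 4.90 and 4.84 to 6.73 and 7.53, while MSX2 stays between 3.21 and 3.40.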

How the data were processed

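Droplet single-cell RNA was measured in 1 VC and 1 TNF library, and the deposited matrices hold UMI counts per gene and cell. Their header names Cell Ranger 6.0.1, while the submitters' processing notes name Cell Ranger 2.1.1, STAR 2.7.8a, HTSeq 0.11 and limma. Which genome build lies behind the UMI matrices is not given in the sources used. The bulk tables hold log2 values that the authors deposited, on the scale of CPM + 1 with an offset of 0.5 reads, and all values gave whole reads within 0.01 reads.

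Members, lists and tests were chosen with earlier results of these data known. Cells with over 500 genes were kept. UMIs were summed per class, scaled to CPM and compared after adding 10 CPM, for genes with at least 50 UMIs, a minimum that favours genes high in the gated cells. The text names the 30 leading genes and most of the 15 lowest genes against other cells. It also names the 12 highest and 12 lowest genes of TNF against VC and the 10 each way that differed most from the other cells. List members and, in bulk, the 5 largest rises are named too. The genes that lead each subgroup were chosen after their values were seen.

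The neuron gate took at least 3 of STMN2, ELAVL3, ELAVL4, DCX, INA and SNAP25. The podocyte gate took at least 4 of 6 podocyte genes, NPHS1, PODXL, SYNPO, PTPRO and CLIC5 among them. The Schwann gate took SOX10 with at least 2 of 6 glial and crest genes, ERBB3, CDH19, S100B and FOXD3 among them. Some list members are not reported here. Doublets were the highest Scrublet scores up to the expected share, because Scrublet's own threshold called 0 VC and 6876 TNF cells. Gated cells were clustered on 1500 variable genes, 20 principal components and 15 neighbours at a resolution of 0.5. Set 2 was fitted with limma 3.58.1 (R 4.3.3), with edgeR 4.0.16 and DESeq2 1.42.0 on recovered reads as alternatives, and a Benjamini-Hochberg adjusted p under 0.05 as the threshold. Cells were handled with scanpy 1.11.5 and scipy 1.17.1 (python 3.11.15). The scripts were tested on simulated data. A day 25 sample of another label was not analysed here.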

Additional observations from a re-analysis of the deposited data

Results flagged for a closer look

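In gated cells SST was higher in TNF than in VC, with a log2 ratio of 2.85, while in all other cells the log2 ratio was -0.04. Of the 548 SST UMIs in gated TNF cells 304 lay in 1 cell, and the ratio turned to -1.70 without mixed cells. WNT5A was lower in gated TNF cells, with a log2 ratio of -1.15, and higher in the other TNF cells, with 0.22. Its highest gated levels were in subgroups 6 and 3, with 84 and 122 VC cells and 2 and 15 TNF cells. All gated cells numbered 753 in VC and 216 in TNF. HAPLN1, a link protein of the matrix, had a log2 change of 1.06 from day 21 to day 29 in set 2 (limma adjusted p = 0.0038) and a difference of -0.31 in set 1. Each rests on 1 library per condition, apart from set 2, and the difference was not tested.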

How the results depend on the processing

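Of 326 values under alternatives, 97 for the main comparisons and 125 for single genes kept their direction and call or stayed close to the reported value. The VC share of gated cells was 9.10% with 2 gate genes, 4.69% with 4, 6.82% in cells of over 1000 genes, 5.25% without mixed cells, 1.90% when thinned to 1500 UMIs and 4.16% when thinned to 3000. The TNF share was 2.31% with 2 gate genes, 0.557% with 4, 1.11% without doublets, 0.652% without mixed cells, 0.281% when thinned to 1500 UMIs and 1.05% when thinned to 3000. Against other cells, 8 of 237 tested genes were higher after thinning, and the lower genes numbered 162 with 4 gate genes, 290 of 13397 after thinning, 567 with 1 CPM added and 286 without mixed cells. Within gated cells, the genes higher in TNF numbered 101 with 1 CPM added and 56 (with 45 lower) by the mean of the cells' own CPM, and the lower genes 24 of 1379 tested after thinning and 292 with 1 CPM added. NF-kB targets at least 2-fold higher numbered 10 with 1 CPM added and 10 of 31 tested with no UMI minimum, and no value could be given after thinning. SST turned to -0.48 with 4 gate genes, -0.71 after thinning and -1.70 without mixed cells. The cause of these changes was not tested. Few gated TNF cells and 1 library per condition limit all values on cells.

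In set 2, genes lower on day 29 numbered 4667 after centring, and those lower on day 25 numbered 1281 after centring and 348 without the trend. For day 25, edgeR called 1303 and 677 genes. The leading gene WNT3A was called lower on day 29 by edgeR, DESeq2, centring, a mean log2 value over 1 and the block, which makes 1 leading gene lower in each. Leaving out 1 library in turn gave 1398 to 2964 genes higher and 960 to 2453 lower on day 29, with 17 to 22 leading genes higher and 0 to 1 lower. On day 25 it gave 191 to 1336 higher and 50 to 896 lower, with 1 to 12 leading genes higher. Org1 and Org2 were checked as pairs, and the deviations of same-numbered libraries correlated at 0.143, 0.075 and 0.270 over 18572 genes. These correlations were weak but all positive. The labels give only the numbers, and whether same-numbered libraries share a culture was not tested. With the replicate block, 3149 genes were higher and 2907 lower on day 29, 1259 and 832 on day 25, and 22 leading genes were higher and 1 lower on day 29.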

Other observations

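Other pathways of the neural tube were set beside the gated cells. Retinoid genes summed to 3694 CPM in gated and 2846 CPM in other VC cells and to 3569 and 2688 CPM in TNF. Hedgehog pathway genes summed to 360 against 237 CPM in VC and 356 against 262 CPM in TNF, led by GAS1, a coreceptor. Genes of choroid plexus and ependyma, which also line the dorsal midline, summed to 53.0 against 42.6 CPM in VC and 48.7 against 32.1 CPM in TNF, led by FOXJ1. At least 2-fold higher in both libraries were 0 of 3 Hedgehog and 0 of 6 retinoid genes with enough UMIs, too few to read against 1.98% over all genes.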
